A study of Homo sapiens with 4 samples.

Results

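The 8 genes described here encode the machinery that controls the sterol regulatory element-binding proteins (SREBPs): the transcription factors SREBF1 and SREBF2, their escort SCAP, the retention proteins INSIG1 and INSIG2, the processing proteases MBTPS1 and MBTPS2, and the sterol carrier STARD4. They were chosen by symbol, as the rows of the deposited gene table that GENCODE maps to those names. They were 8 of the 65217 human genes in the table and 8 of the 17075 that passed the filter on low counts. None of the 8 encodes a lipoprotein receptor, so that they describe the control of the pathway and not lipoprotein uptake itself. RNA was sequenced from SEM, a human cell line of B-lineage acute lymphoblastic leukaemia with a fused KMT2A-AFF1 gene (MLL-AF4), after its transplantation into mice aged 6 to 10 weeks. There were 2 libraries of SEM cells from brain (the protocol names the leptomeninges, the thin membranes around the brain) and 2 of SEM cells from spleen. No further genotype, drug or time is given for either group. Each library held RNA of 5 mice combined, so that the spread between mice cannot be seen. The whole experiment was done on 2 occasions, which give the replicate numbers.

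Precursor SREBPs sit in the membrane of the endoplasmic reticulum bound to SCAP. When membrane sterol is low, SCAP carries them in COPII vesicles to the Golgi, where the site-1 and the site-2 protease cut them in turn and release the transcription factor. When sterol is high, INSIG proteins hold SCAP in the endoplasmic reticulum, and INSIG1 and SREBF2 are themselves SREBP target genes.

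The deposited gene counts summed to between 33055465 and 36913437 in the brain libraries and to between 26266136 and 32972842 in the spleen libraries. Reads of the mouse host, counted apart on mouse transcripts, made up 2.24% and 1.45% of the estimated counts in brain, against 4.31% and 6.32% in spleen. All 8 markers of B-cell precursors were detected in all 4 libraries, with sums of 2317 and 2196 CPM (counts scaled by library size, with TMM factors) in brain and 1720 and 1849 CPM in spleen. None passed edgeR's test. At an unadjusted p under 0.05, 4 of the 8 were higher, against 10.7% of all genes tested, and with the replicate block 3 of the 8 were called higher, against 7.48%. The marker that differed most was IGLL1, with 78.9 and 105 CPM in brain and 8.86 and 21.5 CPM in spleen. The 17 human markers of other cell types summed to 109 and 78.1 CPM in brain and to 67.8 and 63.8 CPM in spleen. Most of that sum was CSF1R (30.3 and 22.9 CPM in brain, 29.0 and 26.2 CPM in spleen) and PECAM1 (72.4 and 49.7 CPM in brain, 33.4 and 29.9 CPM in spleen). PECAM1 and COL1A1 (1.92 and 1.49 CPM in brain, 0.36 and 0.83 CPM in spleen) were higher at an unadjusted p under 0.05 and called higher with the replicate block. Of the list, 12 of the 17 did not pass the filter on low counts, and CD3D and SNAP25 were at 0 in every library. The part that these differences have in the results was not tested. The markers are human genes and the host is a mouse, with SEM the only human cells named, so these lists do not count cells of the host. In such bulk samples a change in all SEM cells and a change in a part of them cannot be told apart. Spleen replicate 2 stood apart by base composition: over the genes lowest in GC (at most 41.1%), its median deviation from the mean of the libraries was -0.34 on the log2 scale, against values between 0.12 and 0.13 in the other 3 libraries. Of the 8 genes, STARD4 (35.2% GC), INSIG2 (36.3%) and MBTPS2 (40.2%) are among them. Fold changes were therefore also computed with a trend on GC content and length removed, which moved the median of all genes by -0.12 on the log2 scale. With that trend removed INSIG1 was at 1.64, SREBF2 at 0.73, SCAP at -0.17 and MBTPS1 at -0.28, where the first 2 were called and the last 2 were not.

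The promoters of 3 genes, the pair that passed the test (SREBF2 and INSIG1) and the gene of largest fold change in edgeR's test without a block (STARD4), are shown from 250 bases before the start to 50 bases after it. They were taken from RefSeq on GRCh38.p14, and all 8 genes had a window there (INSIG2 had 2, so that there were 9). Both strands were searched for TCACNCCAC, the core of the sterol regulatory element that SREBPs bind, for CCAAT, the box bound by NF-Y, a known partner of SREBPs, and for GGGCGG, the GC box bound by SP1. Capitals mark the sterol regulatory element and the NF-Y boxes, which read ATTGG where they lie on the reverse strand. The SREBF2 window is chr22:41832855-41833154 on the plus strand, the INSIG1 window is chr7:155297628-155297927 on the plus strand and the STARD4 window is chr5:111512486-111512785 on the minus strand.
SREBF2 promoter: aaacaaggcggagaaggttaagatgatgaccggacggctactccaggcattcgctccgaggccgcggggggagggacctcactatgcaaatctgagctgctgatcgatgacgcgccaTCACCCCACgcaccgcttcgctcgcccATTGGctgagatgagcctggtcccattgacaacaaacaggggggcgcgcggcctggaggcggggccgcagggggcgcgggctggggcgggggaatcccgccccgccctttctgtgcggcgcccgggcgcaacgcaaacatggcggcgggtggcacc
INSIG1 promoter: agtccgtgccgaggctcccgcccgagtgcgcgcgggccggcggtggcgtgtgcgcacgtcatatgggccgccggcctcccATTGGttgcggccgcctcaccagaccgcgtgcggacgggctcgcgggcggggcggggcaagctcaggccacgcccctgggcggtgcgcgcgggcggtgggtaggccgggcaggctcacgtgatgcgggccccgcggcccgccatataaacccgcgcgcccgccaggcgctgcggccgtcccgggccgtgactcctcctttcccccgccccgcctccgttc
STARD4 promoter: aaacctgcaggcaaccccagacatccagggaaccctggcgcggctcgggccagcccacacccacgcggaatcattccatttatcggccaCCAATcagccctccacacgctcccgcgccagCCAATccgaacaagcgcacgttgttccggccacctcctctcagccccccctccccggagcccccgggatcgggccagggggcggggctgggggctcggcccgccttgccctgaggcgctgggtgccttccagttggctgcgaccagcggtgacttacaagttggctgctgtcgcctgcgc

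In the SREBF2 window the sterol regulatory element TCACCCCAC lay between 133 and 125 bases before the start, and the NF-Y box followed it after 18 bases. The INSIG1 window held 1 NF-Y box, 170 to 166 bases before the start, and 6 GC boxes, 2 of which share a base. The STARD4 window held 2 NF-Y boxes, which began 161 and 130 bases before the start, and 1 GC box. Over all 8 genes, 1 had the sterol regulatory element, 3 had an NF-Y box and 6 had a GC box. Among the 35116 RefSeq promoter windows of the same length, 1.13% held the first, 34.6% the NF-Y box and 45.0% the GC box. These matches describe the windows. Only the patterns named above were searched, so variant elements within the windows and elements outside them were not sought.

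**Figure D1:**
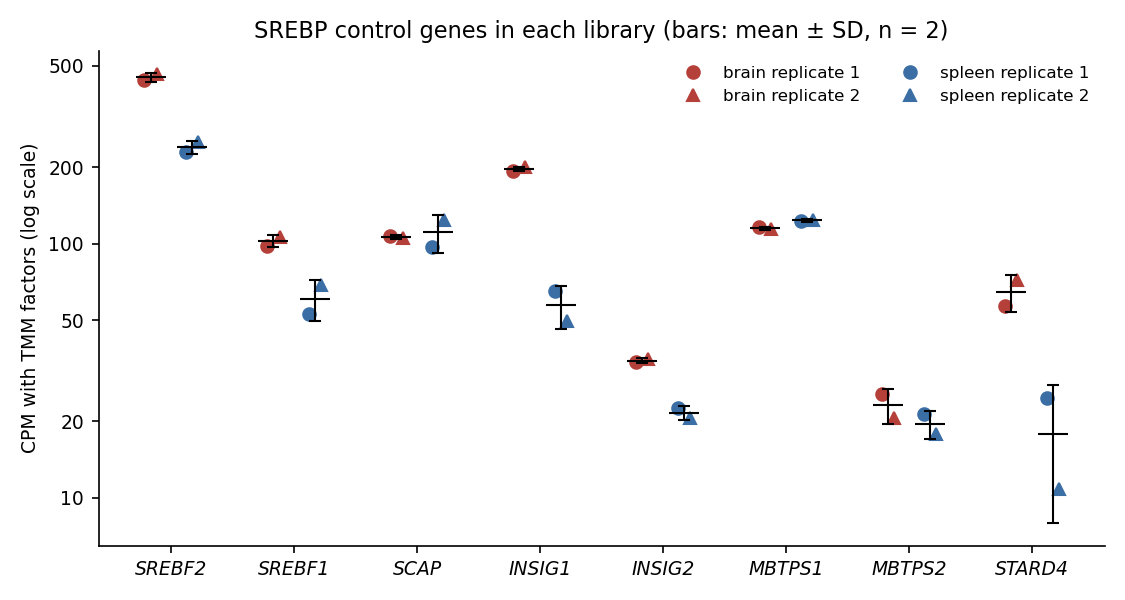
Level of each gene in each library, in CPM with TMM factors on a log axis, with brain left of spleen; bars are the mean and SD of 2 libraries. SREBF2, SREBF1, INSIG1, INSIG2 and STARD4 are higher in both brain libraries than in both spleen libraries, while the groups overlap for SCAP and MBTPS2.

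INSIG1 and SREBF2 rose in SEM cells from brain, to 3.44 and 1.88 times the spleen level, and none of the 8 was called lower. Thus 2 of 8 were called higher by edgeR's quasi-likelihood test with Benjamini-Hochberg adjustment over all genes, where 1.63% of the genes tested were called higher, and 0 of 8 were called lower, against 0.387% of all genes (2.02% in either direction). By unadjusted p under 0.05, 5 of the 8 were higher, against 10.7% of all genes, and 0 lower, against 9.94%. DESeq2 called the same number, 5, higher and 0 lower, against 3.33% and 2.46% of all genes to which it gave an adjusted p. With the replicate number as a block, SREBF1, INSIG2 and STARD4 were called higher too, which made 5 of 8 against 7.48% of all genes, while 0 of 8 were called lower, against 3.37% (10.9% in either direction). In CPM, both brain libraries lay above both spleen libraries for the same 5 genes, against 30.2% of all genes. They lay below for 1 gene, MBTPS1, against 26.7%. The median log2 fold change over the 8 genes was 0.72, and over all genes tested it was 0.04. With 2 libraries against 2, an exact permutation test of a single gene cannot give a p under 0.333. The p-values measure at most the spread between these libraries, estimated in part over all genes together. With the replicate block, the SEs of the 8 genes lay close together, between 0.198 and 0.238. Block p-values thus say little of a single gene's own spread.

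Of the transcription factors, SREBF2 (ENSG00000198911, chr22:41833105-41907306, plus strand, GRCh38), which encodes SREBP-2, the main driver of cholesterol synthesis genes, had 439 and 463 CPM in brain and 230 and 250 CPM in spleen. The libraries did not overlap, and both brain values were near to each other. The log2 fold change was 0.91 ± 0.13 (SE), with an adjusted p of 0.0210 in edgeR's quasi-likelihood test. It rested on 16228 and 15806 counts in brain and 7577 and 6319 in spleen. Without either brain library the fold change held (0.94 and 0.87) but the adjusted p was 0.0518 and 0.0774. One transcript, SREBF2-201, took between 90.1% and 93.4% of the gene's estimated counts in every library.

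SREBF1 (ENSG00000072310, chr17:17810399-17837002, minus strand), which encodes SREBP-1, known above all for fatty acid synthesis genes, had 98.2 and 106 CPM in brain and 52.7 and 68.6 CPM in spleen. The groups did not overlap, and the spleen libraries differed more from each other than the brain libraries did. The log2 fold change of 0.75 ± 0.17 (SE) missed the threshold in edgeR's quasi-likelihood test (adjusted p = 0.0722) and passed it with the replicate block (adjusted p = 0.00409). In TPM, a level scaled by transcript length, the ratio of SREBF2 to SREBF1 stood at 1.92 and 1.99 in brain, against 1.90 and 1.49 in spleen, so that SREBF2 was the more abundant in each library. Of the SREBF1 TPM, 51.3% and 53.3% in brain and 57.6% and 64.9% in spleen came from transcripts that start in neither first exon described below. Most of these are short, and the size of the ratio depends on counting them.

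SREBF1 has alternative first exons. Transcripts of the upstream exon encode SREBP-1a, with a longer activation domain, and transcripts of the downstream exon encode SREBP-1c, the main form in liver. The transcript files held 23 SREBF1 transcripts, of which 3 start in the upstream exon (chr17:17836727-17837002) and 3 in the downstream exon (chr17:17823518-17823618). The upstream exon holds 91 coding bases, and the downstream exon 19 in SREBF1-206, its only coding transcript. Upstream transcripts summed to 26.5 and 29.8 TPM in brain and to 12.5 and 13.0 TPM in spleen. Downstream transcripts summed to 4.27 and 4.69 TPM in brain and to 0.77 and 0.63 TPM in spleen. By these estimates both kinds were higher in each brain library than in either spleen library, and the upstream kind was the higher of the pair throughout. The downstream transcripts in the files are short, with 1058, 580 and 591 bases, while the upstream ones have between 3696 and 4253 bases. Reads of later exons that both kinds share may thus be counted on other transcripts. The downstream level and share may therefore be too low, which was not tested.

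**Figure D2:**
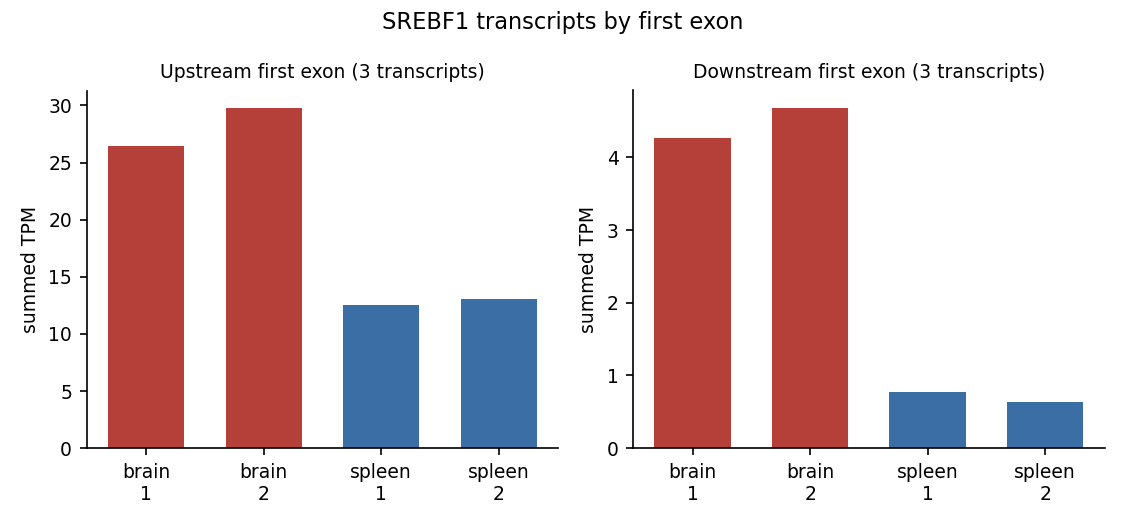
Summed TPM of SREBF1 transcripts that start in the upstream (left panel) and in the downstream first exon (right panel, with its own axis), 1 bar for each library. Upstream transcripts reach 26.5 and 29.8 TPM in brain and 12.5 and 13.0 TPM in spleen, and downstream transcripts stay under 5 TPM in every library.

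By estimated counts, downstream transcripts held 2.86% (95% Wilson interval 2.37% to 3.46%) and 2.40% (1.95% to 2.95%) of SREBF1 in brain. In spleen they held 0.863% (0.524% to 1.42%) and 0.749% (0.438% to 1.28%). The intervals of the groups did not overlap, and they cover counting error only. They do not cover the error of dividing reads between transcripts, which the files do not give, and no test was run with 2 libraries a group. These shares rested on 104 and 87 counts in brain and on 15 and 13 in spleen. By TPM the downstream share came to 6.77% and 6.35% in brain, against 2.44% and 1.63% in spleen. The remaining 17 transcripts start elsewhere, most without an annotated coding start, and held 16.4% and 18.5% of the counts in brain and 24.3% and 33.7% in spleen.

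INSIG1 (ENSG00000186480, chr7:155297776-155310235, plus strand), which encodes the sterol-responsive retention protein of SCAP, had 194 and 200 CPM in brain and 64.9 and 49.5 CPM in spleen. The groups stood far apart, and the brain libraries lay within a few CPM of each other. The log2 fold change was 1.78 ± 0.17 (SE), with an adjusted p of 0.00358 in edgeR's quasi-likelihood test, and 98.5% of the genes tested had a smaller one. It was called under all 12 alternatives, with values between 1.61 and 1.94. Transcript INSIG1-201 held 83.8% and 87.8% of the gene's estimated counts in brain and 75.8% and 78.6% in spleen. INSIG1-206, a shorter coding transcript, had estimates of 138 and 219 counts in brain and was listed at 0 in both spleen libraries.

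INSIG2 (ENSG00000125629, chr2:118088452-118110997, plus strand), the paralogue of INSIG1, had 34.2 and 35.2 CPM in brain and 22.6 and 20.6 CPM in spleen. The groups did not overlap, and the gap was smaller than for INSIG1. Its log2 fold change of 0.68 ± 0.16 (SE) missed the threshold in edgeR's quasi-likelihood test (adjusted p = 0.0761), passed it with the replicate block (adjusted p = 0.0278), and was 0.36 (adjusted p = 0.271) once the trend on GC content and length was removed. In TPM, INSIG1 exceeded INSIG2 in every library, by 3.85 and 4.23 times in brain and by 2.10 and 1.41 times in spleen. The ratios of the groups did not overlap.

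STARD4 (ENSG00000164211, chr5:111496033-111512590, minus strand) encodes a carrier that moves cholesterol between membranes in the cytosol. It had 57.1 and 72.1 CPM in brain and 24.8 and 10.8 CPM in spleen, so that every brain value lay above every spleen value. The spleen libraries, with 818 and 274 counts, differed from each other more for STARD4 than for any of the other 7 genes relative to their mean. Its log2 fold change of 1.85 ± 0.45 (SE) missed the threshold in edgeR's quasi-likelihood test (adjusted p = 0.137) and passed it with the replicate block (1.95, adjusted p = 3.03e-13). The SE with the block was 0.24 although the spleen libraries stood far apart, so the block's p-value says little of the gene's own spread. With spleen replicate 2 or 1 left out, which hides the spread in spleen, the log2 fold change was 1.39 or 2.52. With the trend on GC content and length removed it was 1.49 (adjusted p = 0.00265). It was the largest fold change of the 8 in the main test, but lay below that of INSIG1 with the trend removed, with or without the block, and without spleen replicate 2 or brain replicate 2. The antisense gene STARD4-AS1 (chr5:111510396-111739726, plus strand) shares 2195 bases with STARD4 and had 11.7 and 16.5 CPM in brain and 8.16 and 4.51 CPM in spleen. Its log2 fold change was 1.14 ± 0.33 (SE; adjusted p = 0.130 in edgeR's test, 0.000345 with the replicate block). The kit keeps strand, but the strand option of the counting is not given in the sources used here, so reads of the overlapping part may be divided between the pair.

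**Figure D3:**
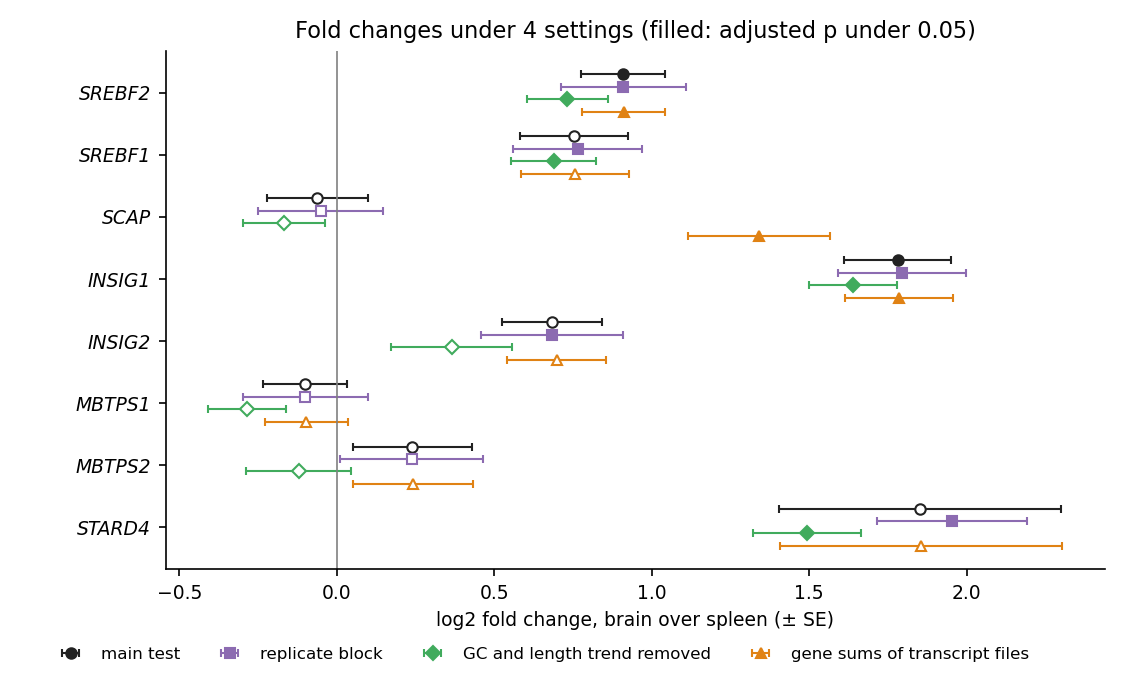
Log2 fold change of brain over spleen for each gene, with its SE, under 4 settings; filled symbols have an adjusted p under 0.05. INSIG1 and SREBF2 are filled in all 4, STARD4 and SREBF1 under the block and the GC and length trend, and INSIG2 under the block. SCAP lies at -0.06 with the deposited counts and at 1.34, filled, with the gene sums of the transcript files.

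SCAP (ENSG00000114650, chr3:47413681-47477126, minus strand), the sterol sensor that escorts SREBPs, had 107 and 105 CPM in brain and 97.3 and 124 CPM in spleen. The brain values lay between the spleen values, and the log2 fold change was -0.06 ± 0.16 (SE), with an adjusted p of 0.859 in edgeR's quasi-likelihood test. Without spleen replicate 1 it was -0.28, and without spleen replicate 2 it was 0.14, so its direction turned on a single spleen library.

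SCAP counts were divided over its transcripts in unlike ways in brain and spleen libraries, which was not tested. The deposited gene table gave 3974 and 3583 counts in brain and 3208 and 3142 in spleen, whereas the SCAP transcripts of GENCODE release 44 summed to 3628 and 3263 estimated counts in brain and to 1543 and 753 in spleen. The part of the table's count that these transcripts did not cover was thus 8.70% and 8.93% in brain, against 51.9% and 76.0% in spleen. A search covered 1853775 pairs of human transcripts outside that release, from 1926 candidates kept because their counts did not exceed the gap. The best pair, ENST00000545718 (2950 bases) and ENST00000428413 (3749 bases), made up the gap to within 2 counts in every library. Only the best partner of each transcript was kept. The best pair with another first transcript missed the gap by 162 counts in at least 1 library, so other pairs that share the first transcript were not ranked. The pair was found by this search after the values were seen, and its assignment to SCAP rests on the sums alone.

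**Figure D4:**
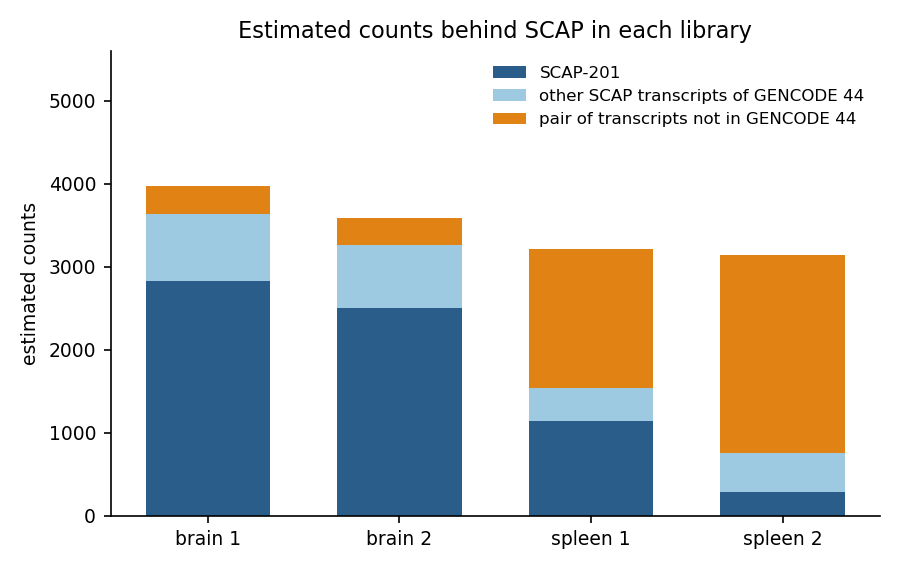
Estimated counts behind SCAP in each library, stacked as SCAP-201, the other SCAP transcripts of GENCODE release 44, and the pair of transcripts outside that release whose sum fills the gap to the deposited gene count. SCAP-201 is the largest block in both brain libraries and the pair is the largest in both spleen libraries.

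The pair summed to 8.71% (95% Wilson interval 7.87% to 9.62%) and 8.98% (8.09% to 9.96%) of SCAP counts in brain. It summed to 51.9% (50.2% to 53.6%) and 76.0% (74.5% to 77.5%) in spleen. The intervals cover counting error only, and not the error of dividing reads between transcripts. They do not cover the spread between libraries either, as those of the spleen libraries lay far apart. The main coding transcript SCAP-201 held 71.0% and 69.8% in brain, against 35.5% and 9.01% in spleen. Brain libraries were thus alike in this split, and the spleen libraries differed from brain and from each other. With the gene sums of GENCODE transcripts in place of the deposited table, SCAP came to 1.34 ± 0.22 on the log2 scale (SE; adjusted p = 0.0409 in edgeR's quasi-likelihood test). With the pair included, the SCAP level was 40.7 and 41.7 TPM in brain and 37.1 and 45.7 TPM in spleen, which overlap. For the other 7 genes the table and the transcript sums differed by at most 67 counts, in SREBF2 of brain replicate 1.

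Neither protease was called. MBTPS1 (ENSG00000140943, chr16:84053761-84116942, minus strand), the site-1 protease that makes the first cut, had 116 and 114 CPM in brain and 122 and 124 CPM in spleen. Both brain values lay just below both spleen values. The log2 fold change came to -0.10 ± 0.13 (SE), with an adjusted p of 0.703 in edgeR's quasi-likelihood test. In TPM the order was reversed, with 43.0 and 43.6 in brain and 39.5 and 37.1 in spleen, so the direction depended on the unit. MBTPS2 (ENSG00000012174, chrX:21839617-21885423, plus strand), the site-2 protease that makes the second cut within the membrane, had 25.7 and 20.6 CPM in brain and 21.3 and 17.8 CPM in spleen. Its groups overlapped, and the log2 fold change came to 0.24 ± 0.19 (SE; adjusted p = 0.502), and the sign turned to -0.12 with the trend on GC content and length removed. A p above the threshold does not show that the proteases were at the same level.

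Per length, SREBF2 was the most abundant of the 8 in both organs, with 134 ± 18.0 TPM in brain and 58.8 ± 1.18 TPM in spleen (SD, n = 2 each). In brain it was followed by INSIG1 (105 ± 7.91 TPM), SREBF1 (68.5 ± 7.55), MBTPS1 (43.3 ± 0.46), SCAP with the pair above (41.2 ± 0.75), STARD4 (29.1 ± 5.52), INSIG2 (25.9 ± 0.26) and MBTPS2 (7.77 ± 0.96). In this order only the libraries of STARD4 and INSIG2 overlapped between neighbours. In spleen it was followed by SCAP (41.4 ± 6.08 TPM), MBTPS1 (38.3 ± 1.64), SREBF1 (35.2 ± 5.30), INSIG1 (25.9 ± 7.37), INSIG2 (14.7 ± 0.13), STARD4 (6.40 ± 3.41) and MBTPS2 (5.45 ± 1.22). There the libraries overlapped between SCAP and MBTPS1, between MBTPS1 and SREBF1, and between STARD4 and MBTPS2. INSIG1 thus had rank 2 of 8 in brain and rank 5 in spleen, with the pair counted to SCAP. Without the pair, SCAP was at 14.2 TPM in spleen (rank 6), and INSIG1 had rank 4 there. The place of SREBF1 rests on counting its transcripts of other starts, which held most of its TPM in every library.

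Genes whose profile over the 4 libraries was most like that of INSIG1 and of SREBF2 were sought among 10705 genes with a mean of at least 5 CPM, by the distance between log2(CPM + 0.5) values centred on their own mean. HMGCS1, the synthase of the mevalonate pathway, was nearest to INSIG1 (distance 0.09), and REL (0.18), SLCO4C1 (0.19) and ENSG00000253134 (0.23) were among the 5 nearest. The 5 nearest to SREBF2 were MVK, mevalonate kinase (0.05), YPEL3 (0.06), SSBP2 (0.06), CBX7 (0.07) and ENSG00000263264 (0.08). Among the 8 genes, STARD4 was nearest to INSIG1, at 0.60, and SREBF1 was nearest to SREBF2, at 0.24. With 4 libraries in 2 groups these distances are a description.

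Genes around the pathway were described by 9 lists. Of 20 cholesterol synthesis enzymes, known SREBP-2 targets, 10 were called higher in brain and 0 lower, against 1.63% and 0.387% of all genes tested. The list had a median log2 fold change of 0.90, against 0.04 over all genes. The 5 called enzymes of largest change were HMGCS1 (1.81 ± 0.19), SQLE (1.49 ± 0.16), MSMO1 (1.36 ± 0.15), CYP51A1 (1.31 ± 0.14) and DHCR7 (1.31 ± 0.22), each on the log2 scale with its SE. HMGCS1 had 286 and 297 CPM in brain and 97.5 and 68.5 CPM in spleen, a change close in size to that of INSIG1. SQLE, the squalene epoxidase, had 136 and 139 CPM in brain and 53.6 and 43.9 CPM in spleen. Both brain libraries lay above both spleen libraries for 18 of the 20 enzymes, against 30.2% of all genes. The count of enzymes called higher was between 8 and 16 with 1 library left out, with the highest count without spleen replicate 2.

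Of 12 fatty acid synthesis genes, the known targets of SREBP-1, 3 were called higher and 0 lower, against 1.63% and 0.387% of all genes. The median of the list was 0.24. Fewer were called higher when either brain library was left out. More were called higher when either spleen library was left out, and some lower without spleen replicate 2, where more genes were called over the whole table as well. With the GC and length trend removed 4 were called higher and 1 lower. SCD, the stearoyl-CoA desaturase, had 140 and 153 CPM in brain and 21.2 and 16.6 CPM in spleen, which is 2.96 ± 0.18 on the log2 scale (SE; adjusted p = 0.00043 in edgeR's test). FADS1, a desaturase of polyunsaturated fatty acids, changed by 1.06 ± 0.14, and FASN, the fatty acid synthase, by 0.75 ± 0.14. The other 9 did not pass, and 2 of these, ELOVL6 (-0.40 ± 0.23) and ME1 (-0.74 ± 0.38), had negative values; this pair was chosen after the values were seen.

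**Figure D5:**
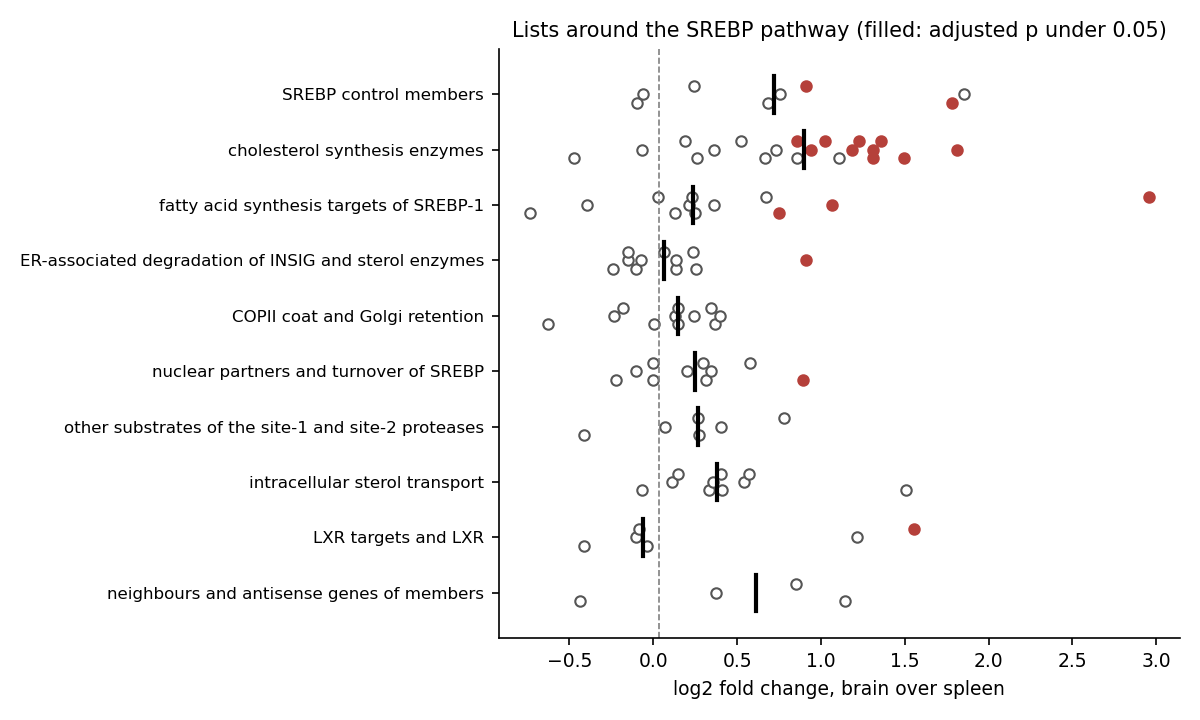
Log2 fold change of brain over spleen for the tested genes of each list, with 1 circle a gene, filled where the adjusted p is under 0.05, and a vertical bar at the median of the list; the dashed line is the median of all genes, 0.04. Cholesterol synthesis has 10 filled circles and the highest median (0.90), and the COPII coat, the protease substrates, sterol transport and the neighbouring genes have none.

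Genes that handle the SREBP proteins formed 3 lists. Of 11 genes of endoplasmic reticulum-associated degradation, which removes INSIG proteins, 1 was called higher and 0 lower, against 1.63% and 0.387% of all genes. The median of the list was 0.06. The called gene was SYVN1, a ubiquitin ligase, with 93.7 and 99.5 CPM in brain and 44.3 and 58.6 CPM in spleen (0.91 ± 0.17 on the log2 scale, adjusted p = 0.0465 in edgeR's test). The list had 0 genes called higher under RLE factors and under the stricter filter, and its call was lost when either brain library was left out. More were called higher without spleen replicate 2, and some lower without spleen replicate 1, where more genes were called over the whole table as well. Of 11 genes of the COPII coat and of Golgi retention 0 were called by edgeR, and the median was 0.14. At an unadjusted p under 0.05 there were 1 higher and 1 lower, near the shares over all genes (10.7% and 9.94%), and DESeq2 called 1 lower, against 2.46% of all genes. Some were called in each direction when either spleen library was left out, where more genes were called over the whole table as well. The most abundant of these were the coat genes SEC24C (0.01 ± 0.14) and SEC31A (0.15 ± 0.14). SEC13, another coat gene, was named after its values were seen: it had 95.1 and 95.6 CPM in brain and 129 and 166 CPM in spleen, and was called lower with the replicate block (-0.61, adjusted p = 0.0239 in edgeR's test). Of 10 nuclear partners and turnover factors 1 was called higher and 0 lower, against 1.63% and 0.387% of all genes. The median of the list was 0.25. The called gene was LPIN1, a phosphatidate phosphatase known to restrain nuclear SREBP. It had 77.4 and 74.7 CPM in brain and 39.3 and 42.5 CPM in spleen (0.89 ± 0.15, adjusted p = 0.0313 in edgeR's test). Its call was lost when either brain library was left out. More genes of the list were called when either spleen library was left out, as over the whole table. The subunits of NF-Y had log2 fold changes of 0.29 (NFYA) and -0.22 (NFYC), with NFYB between them,, and SP1 had 0.20, none past the threshold.

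Other proteins cut by the site-1 and site-2 proteases were 7, of which 6 were tested and 0 called by edgeR, with a median of 0.27. At an unadjusted p under 0.05, 2 were higher, against 10.7% of all genes, and DESeq2 called 1 higher, against 3.33%. The most abundant were the stress-regulated transcription factors ATF6B (0.07 ± 0.13) and CREB3L2 (0.26 ± 0.14). Of 12 genes of intracellular sterol transport 10 were tested and 0 called by edgeR or DESeq2, with a median of 0.38. At an unadjusted p under 0.05, 5 were higher, against 10.7% of all genes. The gene of largest change, GRAMD1C, had 2.60 and 2.43 CPM in brain and 1.21 and 0.515 CPM in spleen (1.51 ± 0.41, adjusted p = 0.107 in edgeR's test), and it alone was called with the replicate block (1.59, adjusted p = 0.00145). Some of the list were called higher when either spleen library was left out, where more genes were called over the whole table as well. The most abundant were GRAMD1A, which carries sterol from the plasma membrane (0.36 ± 0.15), and OSBP, an oxysterol-binding exchange protein (0.11 ± 0.15). Of 7 genes of the liver X receptor (LXR), the oxysterol sensor, 6 were tested and 1 was called higher, against 1.63% of all genes. The median of the list was -0.06. With the replicate block 2 were called higher, against 7.48% of all genes, and DESeq2 called 2 higher, against 3.33%. The gene that edgeR called without the block was MYLIP, an LXR-induced ubiquitin ligase. It had 52.4 and 48.9 CPM in brain and 16.5 and 17.9 CPM in spleen (1.56 ± 0.16, adjusted p = 0.00542 in edgeR's test). ABCA1, the cholesterol exporter that LXR induces, had 4.81 and 4.01 CPM in brain and 2.12 and 1.66 CPM in spleen (1.21 ± 0.28, adjusted p = 0.0724 in edgeR's test), and its adjusted p with the replicate block was 0.00416. The genes of LXR itself, NR1H2 (-0.10 ± 0.16) and NR1H3 (-0.42 ± 0.24), were not called.

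Of 6 genes next to or antisense to the 8, 4 were tested and 0 called by edgeR, while 2 were higher at an unadjusted p under 0.05, against 10.7% of all genes, and DESeq2 called 1 higher, against 3.33%. TOM1L2, the neighbour of SREBF1, had 14.3 and 12.7 CPM in brain and 10.7 and 10.2 CPM in spleen (0.37 ± 0.18). INSIG1-DT, which lies 234 bases from INSIG1 on the other strand, had 5.30 and 4.92 CPM in brain and 2.97 and 2.69 CPM in spleen (0.85 ± 0.24, adjusted p = 0.114 in edgeR's test). SREBF2-AS1, which shares 1561 bases with SREBF2, had a log2 fold change of -0.44 ± 0.25, opposite in sign to that of SREBF2. The microRNA genes within SREBF2 and SREBF1, MIR33A and MIR33B, had 0 counts in every library. The libraries were poly(A)-selected, so these values set no upper limit on the microRNAs. Of the 90 genes tested in the 9 lists, 25 were called higher and 1 lower with the replicate block, against 7.48% and 3.37% of all genes. Without the block edgeR called 16 and 0, against 1.63% and 0.387%.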

How the data were processed

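RNA sequencing was done on 4 libraries of SEM cells, 2 from brain and 2 from spleen. Per the submitters' processing notes, kallisto 0.42.4, DESeq2, cutadapt 1.5 and bcl2fastq 1.8.4 were run with GRCh38 and GRCm38; the sources used here name no settings and no strand option. Per transcript, the authors deposited estimated counts and TPM over human and mouse sequences together, so that a share of reads on mouse transcripts lowers human TPM. Per gene, the authors deposited a table of whole-number counts (rounded estimates) without normalization. It has 1 more column of values that matches no sample, which was not used. Libraries of the same group were no repeat samplings of 1 library: the chi-square of their counts averaged 9.53 per gene for brain and 68.1 for spleen, far above sampling noise. Gene symbols, positions and transcripts came from GENCODE release 44.

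Brain was compared with spleen over the whole table by edgeR 4.0.16 (R 4.3.3; quasi-likelihood, robust, TMM factors, filterByExpr with the groups), with Benjamini-Hochberg adjustment over 17075 genes and calls under 0.05. SEs are those implied by the test statistic. Alternatives were DESeq2 1.42.0, other factors and filters, a replicate block, offsets for GC content and length, transcript sums and leaving out each library. Per the labels the number marks an occasion of the experiment and so pairs libraries; same-numbered deviations from the group means correlated at 0.01 (Pearson) and -0.02 (Spearman) over genes, which are no independent replicates. The 8 genes and the lists were chosen with earlier results of these data known. Named from each list were the called genes, at most 5 by size of fold change, or the 2 of highest CPM where none was called; the other genes named were chosen after their values were seen. For likeness the 5 nearest genes were taken. Genes of lipoprotein uptake are not reported here.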

Additional observations from a re-analysis of the deposited data

How the results depend on the processing

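INSIG1 was called under all 12 alternatives, and MBTPS1 under none of them. SREBF2 lost its call without brain replicate 1 (0.94) or 2 (0.87), and kept it under the other 10; leaving out 1 library gave log2 fold changes between 0.80 and 0.98. SREBF1 gained a call under DESeq2 (0.71), the GC and length trend (0.69, also with the replicate block, 0.69), no filter (0.76) and the replicate block (0.76), and ranged from 0.52 to 0.97 with 1 library left out. INSIG2 gained one under DESeq2 (0.65), no filter (0.69) and the replicate block (0.68), and ranged from 0.63 to 0.70. STARD4 gained one under DESeq2 (1.83), the GC and length trend (1.49, with the replicate block 1.5), no filter (1.85) and the replicate block (1.95), and ranged from 1.39 to 2.52. The sign turned for SCAP with transcript sums (1.34), where the sums lack the pair of transcripts outside GENCODE release 44, and without spleen replicate 2 (range -0.28 to 0.14). It turned for MBTPS2 with the GC and length trend removed (-0.12, and -0.12 with the replicate block). Relative to the shift of all genes under that trend, MBTPS2 lay close to 0. The cause of these moves was not tested.

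Genes of the 8 called higher numbered 5 under DESeq2, no filter and the replicate block, 4 under the GC and length trend with or without the replicate block, and 2 to 5 with 1 library left out (0 to 1 called lower). Over the whole table, 279 genes were called higher and 66 lower, against 526 and 389 under DESeq2, 441 and 290 under the GC and length trend, 1072 and 1059 under that trend with the replicate block, 1269 and 854 with no filter, 1278 and 575 with the replicate block, 180 and 30 with a stricter filter, and 297 to 3392 and 107 to 3415 with 1 library left out. Higher calls were thus 80.9% of calls in the main test, 57.5% under DESeq2, 60.3% and 50.3% under the trend without and with the block, 59.8% with no filter, 69.0% with the block, and 49.8% without spleen replicate 1. Over the 9 lists, 16 higher calls and 0 lower became 26 and 4 under the trend with the replicate block, 26 and 1 with no filter, 25 and 1 with the replicate block, 1 lower under DESeq2 and under the trend, and 12 to 41 higher and 0 to 14 lower with 1 library left out. The share of SREBF1 on downstream transcripts, 2.63% in brain and 0.815% in spleen by counts, was 6.56% in brain and 2.04% in spleen by TPM, and 1.01% in spleen over protein-coding transcripts; with 1 library left out it was 2.40% to 2.85% in brain and 0.754% to 0.876% in spleen. With 1 library left out, the lone library was assumed to vary like the other group. A gene at 0 may still hold up to 3 counts in a library, or 0.0813 to 0.114 CPM.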
